A study of Rattus norvegicus with 6 samples.

Results

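The genes described are those of the constitutive proteasome, the protease that degrades ubiquitin-tagged proteins. They were taken by name: every gene whose symbol begins with Psma, Psmb, Psmc or Psmd and a digit, without the inducible subunit genes Psmb8, Psmb9 and Psmb10, and with 1 probe set per gene, the one with the highest mean over the 6 arrays. The rule found 34 of the 14217 genes that the array reads under 1 symbol, through 45 of 31042 probe sets. Of these, 13 encode subunits of the core particle, 17 encode subunits of the regulatory particle, and 3 (Psmd5, Psmd9 and Psmd10) encode chaperones that help to assemble the base of the regulatory particle. The remaining match, Psmc3ip, takes its name from binding Psmc3, encodes a protein of meiotic recombination and no subunit, and is kept apart below. Psmb6, the gene of a catalytic subunit, is paired with 2 symbols on the array and was not used here.

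Expression was measured on 6 Affymetrix rat arrays of NRK-52E cells, an established epithelial line from normal rat kidney tubules. TGF-β1, a cytokine that makes such cells more like mesenchyme, was given to all of them (10 ng/mL, 24 h), so the control cells are TGF-β1-treated as well. The groups were 3 arrays of cells with a lentivirus carrying a short hairpin RNA against AMPKα2 (called knockdown in the labels) and 3 arrays of cells with a control lentivirus (shCtrl), each described as biological replicates of 1 cell line. No array of cells without TGF-β1 or without a virus was analysed here, and whether the hairpin has targets other than AMPKα2 was not examined.

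The core particle is a barrel of stacked rings. Alpha subunits form the outer rings, which gate the entrance, and beta subunits form the inner rings, of which the subunits encoded by Psmb5, Psmb6 and Psmb7 cut peptides. The regulatory particle caps the barrel: its base holds a ring of ATPases that unfold substrates and scaffold proteins that bind ubiquitin, and its lid removes the ubiquitin chain. The transcription factor encoded by Nfe2l1 raises proteasome genes together when proteasome activity is short, through antioxidant response elements in their promoters, and NF-Y binds the CCAAT boxes found in many of them.

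To show what lies in front of genes that moved in opposite ways, 4 stretches of 250 bases directly before the annotated start are printed here, from RefSeq's GRCr8 assembly, written 5′ to 3′ along the gene. Psmd8 had the largest rise among the members, Psma6 and Psma3 the largest falls, and Psmb5 encodes a catalytic subunit whose change did not pass the test. They lie at chr1:93608690-93608939, chr6:78514097-78514346, chr6:95219499-95219748 and chr15:32047380-32047629, the first and last on the minus strand and the others on the plus strand. Capitals mark matches, on either strand, to the core of the antioxidant response element, searched as TGACNNNGC, or to the CCAAT box, searched as CCAAT.
Psmd8: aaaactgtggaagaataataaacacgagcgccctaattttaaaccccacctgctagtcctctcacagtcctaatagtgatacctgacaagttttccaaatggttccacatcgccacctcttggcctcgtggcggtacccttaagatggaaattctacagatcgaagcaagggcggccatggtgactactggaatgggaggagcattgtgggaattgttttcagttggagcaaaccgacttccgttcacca
Psma6: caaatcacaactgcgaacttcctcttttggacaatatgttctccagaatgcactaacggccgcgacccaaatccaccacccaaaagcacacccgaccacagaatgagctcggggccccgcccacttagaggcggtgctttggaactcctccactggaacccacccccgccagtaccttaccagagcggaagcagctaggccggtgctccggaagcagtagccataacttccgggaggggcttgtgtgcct
Psma3: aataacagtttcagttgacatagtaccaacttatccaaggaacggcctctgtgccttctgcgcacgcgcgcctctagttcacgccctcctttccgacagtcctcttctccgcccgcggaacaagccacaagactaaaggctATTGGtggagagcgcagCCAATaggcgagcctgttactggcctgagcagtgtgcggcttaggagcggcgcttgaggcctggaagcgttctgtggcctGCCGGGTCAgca
Psmb5: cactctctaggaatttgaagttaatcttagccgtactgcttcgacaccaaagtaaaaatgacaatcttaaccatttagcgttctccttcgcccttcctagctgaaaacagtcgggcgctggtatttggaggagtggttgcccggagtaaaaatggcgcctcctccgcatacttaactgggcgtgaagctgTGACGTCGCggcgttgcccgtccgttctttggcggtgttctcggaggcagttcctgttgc
The stretches before Psmd8, which rose, and Psma6, which fell, hold neither sequence. That before Psma3 holds both, and that before Psmb5 holds the response element core alone, its last base 52 bases before the start. A promoter entry was found for 30 of the 34 members. The response element core was in 5 of these 30 (16.7%), Psma3, Psmb2, Psmb5, Psmd1 and Psmd9, against 10.2% of 27457 stretches of the same length over all genes. The CCAAT box was in 17 of 30 (56.7%) against 34.3% of all. The 27457 stretches come from all genes with a promoter entry, not only the 14217 read by the array. They were not matched for level. The 17 include Psmc3ip, Psmd9 and Psmd10, which encode no subunit of either particle. The median log2 fold change was -0.34 over the members with the CCAAT box and -0.56 over the 13 without it. A match of letters is a description and not a measured binding site.

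Values are the deposited log2 expression. A log2 fold change is the mean of the AMPKα2 shRNA arrays minus that of the control arrays, tested with limma over all 14217 genes, and passing means an adjusted p under 0.05. Over probe sets the AMPKα2 shRNA arrays had narrower distributions than the control arrays (SD 1.76 to 1.82 against 2.17 to 2.19). Highly expressed genes were mostly lower and weakly expressed ones mostly higher with the AMPKα2 hairpin, and 85.1% of all genes passed. Changes are therefore also given under quantile scaling (limma's quantile normalization) and loess scaling (its cyclic loess), both of which bring the arrays closer to a common distribution, and under median centring. Prkaa2, the gene of AMPKα2, was at 6.63 ± 0.14 (SD, n = 3) against 6.84 ± 0.05, which missed the threshold (log2 fold change -0.21, limma, adjusted p = 0.0552), so the groups are called by their labels. Prkaa2 also missed it under quantile (-0.053) and loess scaling (-0.15), and was lower under median centring (-0.42). Of 10 measured markers of tubule epithelium 8 rose as deposited (43.6% of all genes rose) and 3 were higher under loess scaling (40.2% of all genes). Their mean was 6.07 to 6.16 on the AMPKα2 shRNA arrays and 5.55 to 5.62 on the control arrays. Krt8 was high, at 12.49 on the control arrays, while Epcam (2.97), Krt18 (3.53) and Cdh1 (4.31) were low in a deposited range that began at 2.37. All 6 measured fibroblast markers rose, 5 of them also under loess scaling, with means of 7.26 to 7.36 against 5.93 to 5.95. The mean of 4 leukocyte markers, all of which rose as deposited and under loess scaling, was 6.12 to 6.25 on the AMPKα2 shRNA arrays and 5.10 to 5.18 on the control arrays, and that of 3 endothelial markers, of which 2 rose and 1 was higher under loess scaling, 4.75 to 5.01 and 4.12 to 4.45. Most of these markers had control means between 3 and 7, where other genes tended to rise as well. The median change of other genes was 0.56 between 3 and 4 and 0.79 between 4 and 5. It was 0.81 between 5 and 6 and 0.19 between 6 and 7. The part of these markers in the results was not tested. Fewer cells of a type and less RNA per cell cannot be told apart in such bulk samples.

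Proteasome genes were mostly lower with the AMPKα2 hairpin on the deposited scale, by modest amounts. Of the 34 genes, 25 fell, 2 rose and 7 did not pass, where 41.5% of all genes fell and 43.6% rose. Most members had control means between 9 and 12, where falls were common. Of other genes, 82.6% fell between 9 and 10, 80.6% between 10 and 11 and 70.5% between 11 and 12. The 41.5% is therefore not a share at like level, here or in the class counts below. The median log2 fold change of the members was -0.46, against 0.05 over all genes. At least a 2-fold fall was seen in 6 members, Psma3, Psma6, Psmc3, Psmc5, Psmd12 and Psmc3ip (17.6%, against 18.6% of all genes), and at least a 2-fold rise in Psmd8 alone among the members (11.6% of all genes). The groups did not overlap in 28 members (82.4%, against 87.1% of all genes). Under quantile scaling 12 members were higher, where 43.8% of all genes were, and 9 lower, where 28.9% were, and the members' median was 0.11. Under loess scaling 17 were higher (40.2% of all genes) and 7 lower (31.5%), and the median was 0.16. Median centring gave 28 lower (48.2% of all genes) and 1 higher (35% of all genes). That most members were lower thus held for the deposited and the median-centred values, and not under quantile or loess scaling. A single direction in all 4 scalings was seen in 8 members. Of these Psmd8 rose (25.5% of all genes did so in all 4), and Psma3, Psma6, Psmc3, Psmc5, Psmd12, Psmd14 and Psmc3ip fell (26.4%).

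**Figure D1:**
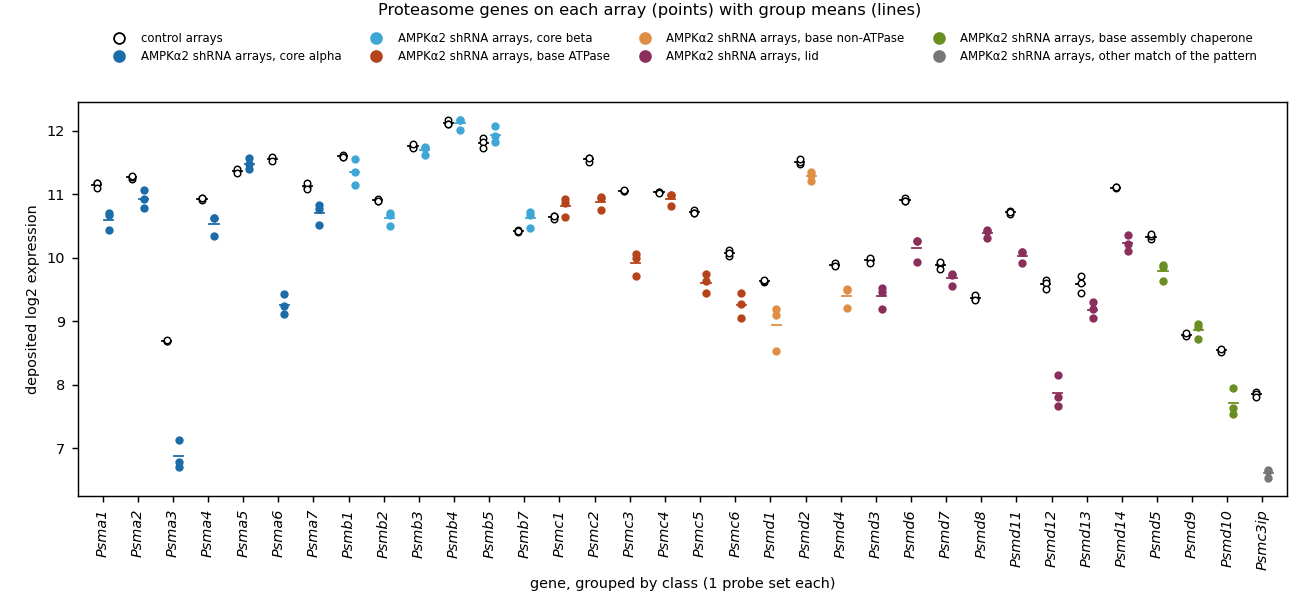
Deposited log2 expression (vertical axis) of the 34 genes (horizontal axis, grouped by class) on the 3 control arrays (open points) and the 3 AMPKα2 shRNA arrays (filled points), with lines at the group means. The control points of a gene lie close together, and the gaps of at least 2-fold are the falls of Psma6, Psma3, Psmd12, Psmc3ip, Psmc3 and Psmc5 and the rise of Psmd8.

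Alpha ring genes split into a pair with large falls and a remainder with small changes. The 7 measured genes had a median log2 fold change of -0.42, and all but Psma5 fell (41.5% of all genes did). Their control means were 8.69 to 11.56, where 70.5% to 82.6% of other genes fell per unit of level. Psma6 stood at 11.57, 11.58 and 11.51 on the control arrays and at 9.23, 9.43 and 9.11 on the AMPKα2 shRNA arrays. All 3 AMPKα2 shRNA values thus lay over 2 log2 units below each control value, and the gene fell by 2.30 (SE 0.10, limma, adjusted p = 9.52e-09), a 4.92-fold difference. Its log2 fold change was -1.75 under quantile scaling and -1.68 under loess scaling. Psma3 was at 8.69, 8.69 and 8.70 on the control arrays and at 7.13, 6.78 and 6.70 on the AMPKα2 shRNA arrays, without overlap. It fell by 1.82 (SE 0.11, limma, adjusted p = 1.12e-07), with log2 fold changes of -1.33 and -1.27 under the same scalings. A near-identical gene, Psma3l, shares another probe set with Psma3 on this array, so how far the value belongs to Psma3 alone is uncertain.

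The other falls in the alpha ring were smaller and did not last in every scaling. As deposited, Psma1, Psma2, Psma4 and Psma7 fell, with log2 fold changes of -0.55, -0.34, -0.40 and -0.42. Loess scaling turned Psma2 and Psma4 into rises of 0.19 and 0.18, and left Psma1 (0.016) and Psma7 (0.14) short of the threshold. The value of Psma5 as deposited, 0.11, missed the threshold, and the gene rose by 0.61 under loess scaling and by 0.48 under quantile scaling. Its groups overlapped, at 11.32 to 11.40 on the control arrays and 11.39 to 11.57 on the others.

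Beta ring genes, which include the peptide-cutting subunits, had the class median nearest to 0 on the deposited values, but under quantile and loess scaling theirs was higher than in the other core and regulatory particle classes, at 0.22 and 0.39. Among 6 measured, Psmb1 and Psmb2 fell (41.5% of all genes did), Psmb7 rose (43.6%), and Psmb3, Psmb4 and Psmb5 did not pass. Control means of the 6 were 10.42 to 12.12, where 65.6% to 80.6% of other genes fell per unit of level. Log2 fold changes of the 6 ran from -0.28 to 0.21, with a median of -0.036. Psmb5, which encodes the chymotrypsin-like subunit, was at 11.88, 11.82 and 11.73 on the control arrays and at 11.92, 12.06 and 11.82 on the AMPKα2 shRNA arrays. These ranges overlapped, and the change of 0.13 missed the threshold (SE 0.092, limma, adjusted p = 0.209). Psmb7, which encodes the trypsin-like subunit, was at 10.43, 10.40 and 10.41 on the control arrays and at 10.68, 10.73 and 10.47 on the others. The lowest AMPKα2 shRNA value was above the highest control value, and the gene rose by 0.21 (SE 0.09, limma, adjusted p = 0.0485), just past the threshold. Leaving out either of the first 2 AMPKα2 shRNA arrays or any control array ended that call, as did the replicate block and a test with the most variable probe set of each gene. Median centring left -0.0067, while quantile scaling gave a rise of 0.79 and loess scaling one of 0.81.

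Psmb2, a non-catalytic subunit gene, had the largest fall of the beta ring. It was at 10.90, 10.93 and 10.90 on the control arrays and at 10.70, 10.67 and 10.50 on the AMPKα2 shRNA arrays, and fell by 0.28 (SE 0.08, limma, adjusted p = 0.00925). Its groups did not overlap, yet it rose by 0.29 under loess scaling. Psmb1 fell by 0.25 and passed narrowly (adjusted p = 0.0454, limma), a call lost without AMPKα2 shRNA replicate 1 or 3 or any control array. The non-catalytic subunit genes Psmb3 and Psmb4 had values of -0.061 and -0.011, neither of which passed. Under loess scaling all 6 measured beta ring genes were higher, by 0.24 to 0.81, where 40.2% of all genes were higher. Under quantile scaling Psmb2, Psmb3, Psmb5 and Psmb7 were higher and the others missed the threshold. Under median centring Psmb1, Psmb2, Psmb3 and Psmb4 were lower and the others missed it.

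The mean of the beta ring genes minus that of the alpha ring genes was compared within each array, after the values had been seen and with no test. It was 0.59, 0.54 and 0.57 on the control arrays and 1.27, 1.41 and 1.33 on the AMPKα2 shRNA arrays. The groups thus did not overlap, and the difference widened by 0.77 on the log2 scale. The widening was 0.63 under quantile scaling and 0.71 under loess scaling. With medians in place of means, which give less weight to Psma3 and Psma6, the widening was 0.39.

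**Figure D2:**
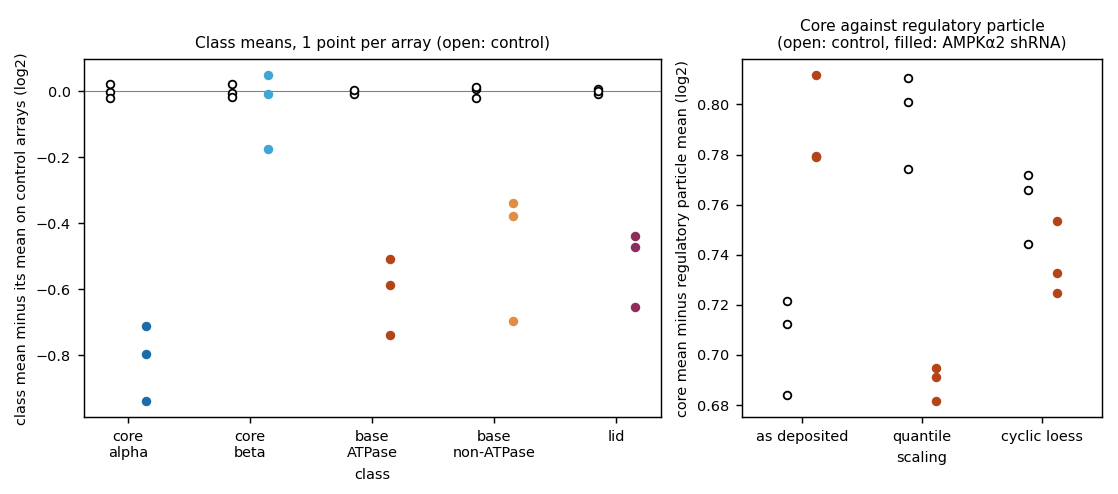
Left, the mean of each subunit class minus its mean on the control arrays (log2), with 1 point per array, open for control and filled for AMPKα2 shRNA. On these means of deposited values the beta ring lies near 0 and the alpha ring lowest. By median change the alpha ring (-0.42) was not the lowest, with the ATPases at -0.74, the lid at -0.62 and other base genes at -0.49. Right, the core mean minus the regulatory particle mean on each array under 3 scalings, where the order of the groups turns between the deposited and the quantile-normalized values.

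Genes of the base ATPases, the ring of motors that unfolds substrates, did not move as a unit. The 6 measured genes had a median of -0.74, and all but Psmc1 and Psmc4 fell (41.5% of all genes did). Their control means were 10.07 to 11.55. Of other genes, 80.6% fell between 10 and 11 and 70.5% between 11 and 12. Psmc3 was at 11.05, 11.05 and 11.06 on the control arrays and at 9.99, 10.05 and 9.70 on the AMPKα2 shRNA arrays. It fell by 1.14 (SE 0.10, limma, adjusted p = 1.56e-06), a 2.20-fold difference, without overlap between the groups. Psmc5 fell by 1.12 (SE 0.09), from 10.72 ± 0.03 (SD, n = 3) to 9.60 ± 0.15. Both also fell under loess scaling, with log2 fold changes of -0.53 and -0.48.

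Psmc2 and Psmc6 fell as deposited, with log2 fold changes of -0.66 and -0.82, and missed the threshold under loess scaling (-0.14 and -0.13). The other probe sets of Psmc6 had -0.95 and -2.05 under loess scaling. Psmc1 and Psmc4 stood apart from them. Psmc1 was at 10.61 to 10.66 on the control arrays and at 10.64 to 10.93 on the AMPKα2 shRNA arrays, which overlap. The changes of Psmc1 (0.17) and Psmc4 (-0.100) missed the threshold (limma, adjusted p = 0.111 and 0.283), and both genes rose under loess scaling, by 0.75 and 0.45. Psmc1 passed as a rise with an intensity trend in the variance, with array weights and without AMPKα2 shRNA replicate 3. Genes of the same ATPase ring thus ranged from -1.14 to 0.17 on the deposited scale.

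The scaffold and ubiquitin-binding genes of the base all fell as deposited (41.5% of all genes did). Their control means were 9.63 to 11.51, where 70.5% to 82.6% of other genes fell per unit of level. Psmd1, which encodes one of the large scaffolds, was at 9.61, 9.64 and 9.64 on the control arrays and at 9.19, 9.10 and 8.53 on the AMPKα2 shRNA arrays. The third AMPKα2 shRNA array was well below the other two, and the fall of 0.69 had a wide error (SE 0.15, limma, adjusted p = 0.00117). Psmd2, the other large scaffold gene, was at 11.47, 11.51 and 11.56 on the control arrays and at 11.34, 11.29 and 11.20 on the AMPKα2 shRNA arrays. Its groups did not overlap, and its log2 fold change of -0.23 (limma, adjusted p = 0.0209) no longer passed without control replicate 2 or 3. Psmd4, a ubiquitin receptor gene, fell by 0.49. Loess scaling gave rises of 0.27 for Psmd2 and 0.20 for Psmd4, and a value of 0.025 for Psmd1 that missed the threshold.

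Lid genes held both the largest rise of the members and one of their largest falls. The 8 measured genes had a median of -0.62, and all but Psmd8 fell (41.5% of all genes did). The groups overlapped in none of the 8, and 87.1% of all genes were likewise without overlap. Control means of the lid genes were 9.36 to 11.10. Of other genes, 82.6% fell between 9 and 10, 80.6% between 10 and 11 and 70.5% between 11 and 12. Psmd8, a lid subunit gene, was at 9.35, 9.41 and 9.33 on the control arrays and at 10.43, 10.42 and 10.32 on the AMPKα2 shRNA arrays. Every AMPKα2 shRNA value lay above each control value, and the gene rose by 1.03 (SE 0.081, limma, adjusted p = 6.41e-07), a 2.04-fold difference. Quantile and loess scaling gave rises of 1.68 and 1.70, and median centring one of 0.81. Psmd12, another lid subunit gene, was at 9.65, 9.60 and 9.499 on the control arrays and at 7.67, 8.15 and 7.81 on the AMPKα2 shRNA arrays. It fell by 1.71 (SE 0.12, limma, adjusted p = 2.95e-07), a 3.27-fold difference, and had a log2 fold change of -0.99 under quantile scaling and under loess scaling.

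Psmd14 encodes the deubiquitinase of the lid, which cuts ubiquitin chains from substrates. It was at 11.09, 11.11 and 11.10 on the control arrays and at 10.36, 10.22 and 10.11 on the AMPKα2 shRNA arrays. The gene fell by 0.87 (SE 0.089, limma, adjusted p = 4.33e-06) without overlap. Its log2 fold change was -0.33 under quantile scaling and -0.28 under loess scaling. The other probe sets of Psmd14, at control means of 8.34 and 10.66, had -0.60 and -0.042 under loess scaling. The structural lid genes Psmd3, Psmd6 and Psmd11 fell, with log2 fold changes of -0.56, -0.76 and -0.69, and none of the 3 passed under loess scaling (0.13, -0.15 and -0.066). The other probe sets of Psmd11, at control means of 10.56 and 3.62, had -0.71 and 0.48 under loess scaling. Psmd13 and Psmd7 fell as deposited (-0.41 and -0.21) and rose under loess scaling (0.31 and 0.47). The call of Psmd7 (limma, adjusted p = 0.0459) was lost with array weights, with the replicate block, without AMPKα2 shRNA replicate 3 and without each control array.

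Among the assembly chaperone genes Psmd10, which encodes gankyrin, fell by 0.83 and Psmd5 fell by 0.54, while Psmd9 had 0.074, which missed the threshold. Under loess scaling Psmd9 rose by 0.79, and Psmd10 (-0.19) and Psmd5 (0.12) were not called. Psmc3ip, which encodes no subunit, fell by 1.24 (SE 0.081) from 7.85 to 6.60, and had -0.92 under quantile scaling and under loess scaling. Of the 30 genes of core and regulatory particle subunits alone, 22 fell (41.5% of all genes did) and 2 rose (43.6%).

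The core and the regulatory particle were then set against each other. The 13 core genes had a median log2 fold change of -0.28, with 8 that fell and 1 that rose. The 17 regulatory particle genes had a median of -0.66, with 14 that fell and 1 that rose. Of all genes 41.5% fell and 43.6% rose. The median control mean was 11.27 for the core and 10.64 for the regulatory particle. Of other genes, 70.5% fell between 11 and 12 and 80.6% between 10 and 11, so the counts of the particles are not at like level. The mean of the core genes minus that of the regulatory particle genes was 0.72, 0.71 and 0.68 on the control arrays and 0.78, 0.78 and 0.81 on the AMPKα2 shRNA arrays. The groups did not overlap, and the regulatory particle was lower relative to the core by 0.084 (0.790 ± 0.019 against 0.706 ± 0.020, SD, n = 3). The order turned under quantile scaling, at 0.689 ± 0.0068 with the AMPKα2 hairpin against 0.795 ± 0.019, and the groups overlapped under loess scaling, at 0.737 ± 0.015 against 0.761 ± 0.014. With medians over genes in place of means the deposited difference was 0.21. No test was run on these means, since the genes were chosen with results of these data known. Which of the particles was lower relative to the other thus depended on the scaling.

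Because the change followed the level over the whole array, each member was also compared with all other genes whose mean on the control arrays lay within 0.25 log2 units of its own. Members had control means of 7.85 to 12.12, where most genes were lower with the AMPKα2 hairpin. Between 9 and 10, 82.6% of 1595 other genes and 6 of 7 members fell, between 10 and 11, 80.6% of 828 and 7 of 9, and between 11 and 12, 70.5% of 312 and 9 of 13. Shares of falling members thus lay close to those of genes of their level. The median of the members was -0.49, -0.54 and -0.34 in these ranges, and that of the other genes -0.91, -0.85 and -0.69.

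A member's change minus the median of its like-level genes was above 0 for 25 of 34, with a median of 0.33. It was above 0 for all 6 measured beta ring genes (median 0.52) and 5 of 7 alpha ring genes (0.33), and for 3 of 6 ATPase genes (-0.011), 3 of 3 other base genes (0.36) and 6 of 8 lid genes (0.23). Psmd8 was the highest, 1.93 above its like-level median and above 99.6% of 899 such genes. Psmc1 and Psmb7 followed with 1.11 and 1.07. Psma6 was the lowest, at -1.71 from its like-level median and above only 0.741% of 135 such genes. Psma3 was above 10.96% of 1040 and Psmd12 above 15.9% of 756. Under loess scaling, matched on the same deposited control level, the median difference was 0.31, with 25 members above 0. Loess scaling shifts genes of like level by similar amounts, so this difference could hardly change and is no separate check.

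The control arrays enter both the level used for this match and the change. Matched on the mean over the 6 arrays in place of the control mean, 19 of 34 members were above their like-level genes, and the median difference was 0.047. That the members as a group fell less than genes of like level thus rested on the level chosen for the match.

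**Figure D3:**
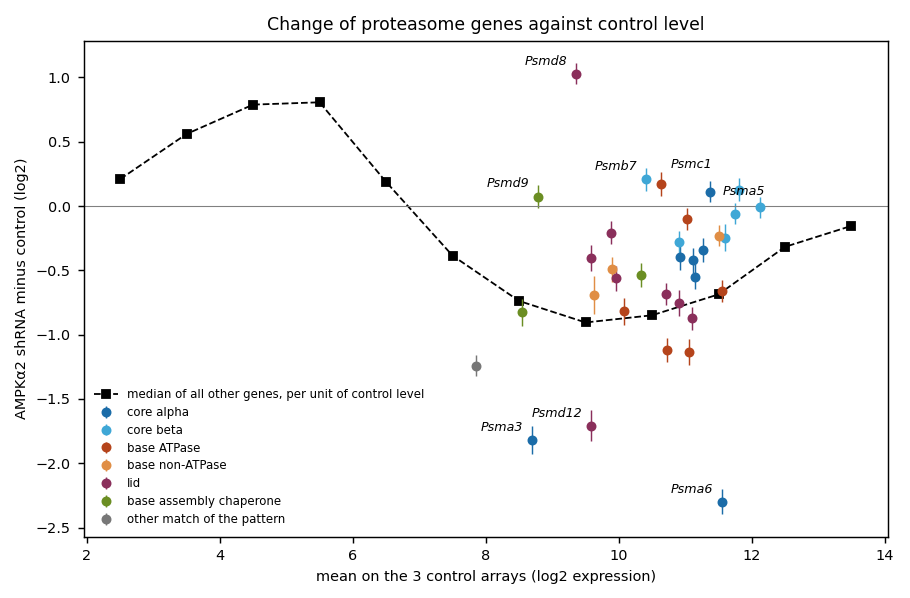
Log2 fold change (AMPKα2 shRNA minus control, bars ± SE) of each member against its mean on the control arrays, coloured by class, with the median of all other genes per unit of control level (dashed line, squares). Against genes within 0.25 of their own level, 25 of the 34 members are above the median and the others below, with Psma6 furthest below and Psmd8 furthest above.

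How members varied among themselves was larger than the error of each. Their log2 fold changes had an SD of 0.64 over the 34 genes and ran from -2.30 to 1.03, while the standard error of a single change was 0.081 to 0.15. Over all 14217 genes the SD of the changes was larger, at 0.96, so a wide spread was not particular to the members. The SD of the changes was 0.88 in the alpha ring, 0.77 in the lid, 0.54 in the ATPases and 0.20 in the beta ring. Replicates were spread more widely with the AMPKα2 hairpin. The median SD of a member was 0.14 on those arrays and 0.030 on the control arrays, and it was larger with the hairpin in 33 of 34 members (10494 of all 14217 genes). AMPKα2 shRNA replicate 3 was the lowest of its group in 30 of 34 members, and in 72.7% of 5020 other genes with a control mean above 8. Without it 23 members were lower and 3 higher, with a median of -0.37, where 84.6% of all genes passed in either direction.

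Of the members, 7 were read by more than 1 probe set, and these did not always agree in direction. As deposited, the probe sets of Psmd14 fell together, with log2 fold changes of -0.87, -1.15 and -0.67 (limma over all probe sets). Under loess scaling these probe sets had -0.28, -0.60 and -0.042. Those of Psmc6 also fell together as deposited, with -0.82, -1.67 and -2.21 in the same test. For Psmc6 the probe set in use, chosen for its high mean, thus showed the smallest fall of the 3. Psmd11 gave -0.69 and -1.38 from probe sets with control means of 10.72 and 10.56, and 0.94 from one at 3.62. Psmc4 gave -0.100 at 11.03 and 0.74 at 5.84, and Psmb5 gave 0.13 at 11.81, 0.74 at 4.18 and 0.70 at 5.53. In these 3 genes the rising probe sets were those with low values, where genes across the array were higher with the hairpin.

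Psmd7 differed from that pattern. Its probe sets had control means of 9.88 and 9.28 and log2 fold changes of -0.21 and 0.31, and with adjustment over all probe sets only the second passed (limma, adjusted p = 0.0558 and 0.0161). The mean of its probe sets was 0.053 (limma, adjusted p = 0.582). The direction of Psmd7 is therefore not settled by these arrays. The probe sets of Psmd9 gave 0.074 and 0.50, of which the second, at a control mean of 5.61, passed.

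**Figure D4:**
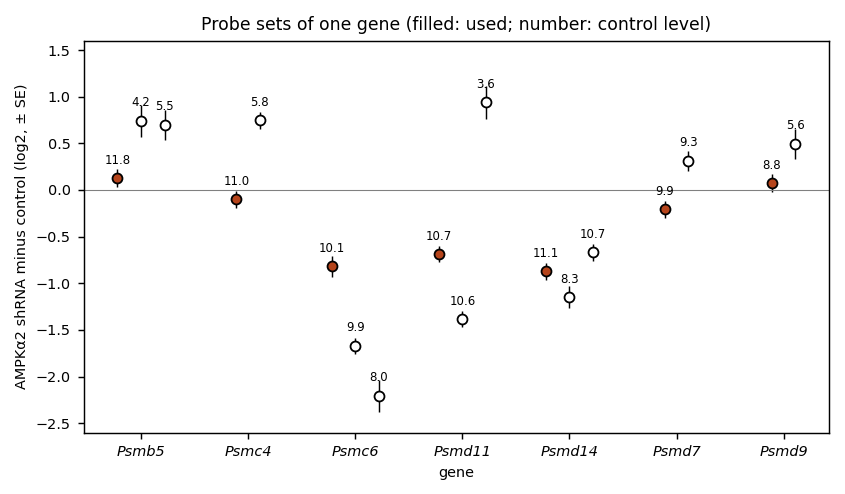
Log2 fold change (± SE) of every probe set of the 7 members with more than 1, filled for the probe set in use, with the mean on the control arrays beside each point. Probe sets of Psmc6 and Psmd14 fall together, while Psmc4, Psmd7 and Psmd11 have probe sets on both sides of 0.

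Partners of the proteasome, a list of activators, assembly factors and bound enzymes, held 17 measured genes of 20 listed. Their median was -0.41, 11 of them fell (41.5% of all genes did), and the other 6 missed the threshold. Their mean on the control arrays was 9.58 to 9.61, and 82.6% of other genes with a control mean between 9 and 10 fell. Single partners had control means from 7.14 to 11.31, so this share is not matched gene by gene. Under loess scaling 9 were higher (40.2% of all genes were) and 6 lower (31.5%). Sem1, which encodes a small lid subunit without a Psm name, fell by 2.54 (SE 0.11, limma), from 11.17 ± 0.02 (SD, n = 3) to 8.63 ± 0.20, and had -1.87 under loess scaling. Ecpas, which encodes a scaffold that binds the proteasome, fell by 2.28 (-1.56 under loess scaling). Psme1, a subunit gene of the interferon-inducible activator cap, fell by 1.64 (-0.95).

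Of the listed regulators of proteasome genes all 14 were measured, 10 fell (41.5% of all genes did) and 3 rose (43.6%), and the median was -0.64. Their mean on the control arrays was 8.30 to 8.34, and 76.4% of other genes with a control mean between 8 and 9 fell. Single regulators had control means from 6.59 to 10.87, so this share is not matched gene by gene. Of other genes, 31.1% fell between 6 and 7 and 58.4% between 7 and 8. Under loess scaling 5 were higher (40.2% of all genes were) and 5 lower (31.5%). The NF-Y subunit genes Nfyc and Nfyb fell, with -1.73 and -1.54, and Ngly1, whose product removes sugar chains from the Nfe2l1 protein before it acts, fell by 1.61. Under loess scaling the values of Nfyc, Nfyb and Ngly1 were -1.03, -1.03 and -1.45, all of which passed. Foxo4, which encodes a forkhead factor, rose by 0.94, and the small Maf genes Maff and Mafk, whose products pair with Nfe2l1, rose by 0.43 and 0.41. Under loess scaling Foxo4, Maff and Mafk were higher by 1.18, 0.92 and 1.09. Under median centring Foxo4 was higher by 0.72, while Maff (0.21) and Mafk (0.19) missed the threshold. Nfe2l1 itself, named here although it falls outside the rule for named genes and after its values were seen, fell by 0.38 as deposited and rose by 0.32 under loess scaling.

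Genes that supply or carry ubiquitin to the proteasome were measured for 13 of 19. Of these 9 fell (41.5% of all genes did) and 2 rose (43.6%), and their median was -0.34. Their mean on the control arrays was 9.90 to 9.94, and 82.6% of other genes with a control mean between 9 and 10 fell. Single genes of this list had control means from 8.42 to 11.88, so this share is not matched gene by gene. Under loess scaling 7 were higher (40.2% of all genes were) and 4 lower (31.5%). The largest falls were those of the shuttle receptor gene Rad23b (-1.53), the ubiquilin gene Ubqln4 (-1.30) and Nploc4 (-1.25), whose product is a cofactor of the unfoldase encoded by Vcp. Their values under loess scaling, -0.92, -0.73 and -0.56, passed as well. The ubiquitin-activating enzyme gene Uba6 and Ufd1, another gene of a Vcp cofactor, rose by 0.25 and 0.24, and under loess scaling by 0.95 and 0.96. Under median centring Uba6 (0.032) and Ufd1 (0.025) missed the threshold.

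The inducible subunits excluded from the members replace catalytic beta subunits under interferon. Psmb9 fell by 2.77 and Psmb10 fell by 0.97, while Psmb8 had -0.013, which missed the threshold, and under loess scaling all 3 were lower (-2.84, -0.61 and -0.39).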

How the data were processed

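Log2 expression per probe set and array, as the authors deposited it, was used without further scaling in the main comparison. The background, summary and scaling steps behind it are not given in the sources used here, and whether the deposited values had been normalized between arrays was judged only from their distributions. Array control probe sets (57) were left out, and no filter on level was set; all 34 members lay above the lowest 50% of genes by mean. Genes were named by the platform annotation, and all 34 Entrez identifiers matched RefSeq's GRCr8 gene table. Each gene was tested by moderated linear models, fitted by limma (version 3.58.1, R 4.3.3; lmFit, eBayes, two-sided, no covariate), with Benjamini-Hochberg adjustment over 14217 genes, a step checked on simulated data. The number of arrays limits precision: 3 against 3 cannot give an exact permutation p under 0.1. Values on every array are given for Psmb5, Psmb7, Psmd14, Psmd1 and Psmd2 and for the largest rise and fall of each class, and from each other list up to 3 rising and 3 falling genes are named. Members, lists and tests were chosen with earlier results of these data known. Same-numbered arrays did not deviate together (r of -0.02, 0.01 and -0.10 over genes), so replicate numbers were not taken as pairs.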

Additional observations from a re-analysis of the deposited data

How the results depend on the processing

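The scaling of the arrays decided most directions. Quantile scaling gave 12 members higher and 9 lower (median 0.11), loess scaling 17 and 7 (0.16), and median centring 1 and 28 (-0.67). Core minus regulatory particle (0.084 as deposited) turned to -0.11 and -0.024 under the first 2, and was 0.19 with the most variable probe set and 0.21 with medians over genes, which were added after seeing the data. The later-added beta minus alpha difference of 0.77 was 0.63 under quantile scaling, 0.71 under loess scaling, 0.84 with the mean of probe sets, 0.87 with the most variable one and 0.39 with medians. The median difference from like-level genes was 0.047 when matched on the mean of all arrays.

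Signs turned under quantile scaling for Psma2 (0.11), Psma4 (0.14), Psma7 (0.090), Psmb1 (0.073), Psmb2 (0.25), Psmb3 (0.19), Psmb4 (0.16), Psmc4 (0.40), Psmd1 (0.060), Psmd13 (0.35), Psmd2 (0.12), Psmd3 (0.16), Psmd4 (0.24), Psmd5 (0.12) and Psmd7 (0.50). Under loess scaling they turned for Psma1 (0.016), Psma2 (0.19), Psma4 (0.18), Psma7 (0.14), Psmb1 (0.24), Psmb2 (0.29), Psmb3 (0.39), Psmb4 (0.38), Psmc4 (0.45), Psmd1 (0.025), Psmd13 (0.31), Psmd2 (0.27), Psmd3 (0.13), Psmd4 (0.20), Psmd5 (0.12) and Psmd7 (0.47). Under median centring they turned for Psma5 (-0.10), Psmb5 (-0.088), Psmb7 (-0.0067), Psmc1 (-0.047) and Psmd9 (-0.14). Psmc4 and Psmd7 turned with the mean of probe sets (0.32 and 0.053) and with the most variable one (0.74 and 0.31). Psmb4 turned with array weights (0.014), and leaving out 1 array at a time gave it -0.038 to 0.042.

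Members that rose numbered 5 with either other choice of probe set, 1 at an adjusted p of 0.01 and 1 with the replicate block, which left 24 lower. Leaving out each array in turn gave 1 to 3 higher and 22 to 25 lower, medians of -0.50 to -0.37, core minus regulatory particle of 0.073 to 0.092, beta minus alpha of 0.74 to 0.81, and a like-level difference of 0.31 to 0.35. Without AMPKα2 shRNA replicate 3, 84.6% of all genes passed in either direction. For the other settings in this paragraph no share of all genes was counted, so these member counts are not set against the whole array. Leaving out the lowest 25% or 50% of genes and robust variances changed no member's call. The cause of the differences between scalings was not tested. Signal over background was not given for single probe sets.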
